A study of Rattus norvegicus with 24 samples.

Results

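Lung mRNA of 10 genes of the endoplasmic reticulum (ER) stress and unfolded protein response was followed in Fischer-344 rats that inhaled hexanal, an aldehyde found in indoor air. The genes were Hspa5, Hsp90b1, Pdia4, Herpud1, Dnajb9, Xbp1, Atf4, Ddit3, Trib3 and Asns. They were chosen by symbol, and each had 1 probe on the array, among 21255 genes and unnamed probes that passed the filter on dim probes. All 10 probes passed that filter, were well above background on all 24 arrays and were saturated on none. The study held 24 rats on one-colour Agilent arrays, 6 in each of 4 groups, with 3 males and 3 females in a group. The control group breathed filtered clean air. The low-, middle- and high-dose groups breathed 600, 1000 and 1500 ppm hexanal for 4 h/day on 5 days/week. The labels state an exposure of 5 weeks, and the methods of the study a shorter one. Rats were 7 to 8 weeks old at the start, and each array was labelled as the lung RNA of 1 rat. All levels below are log2 signal minus the log2 of the 75th percentile of the same array, so 0 is the signal that 75% of the probes of that array do not exceed, and a difference of 1 is a doubling. Levels were compared between rats for the same gene and not between genes.

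When proteins fold poorly in the ER, the sensors Ire1 (encoded by Ern1), Perk (Eif2ak3) and Atf6 signal to the nucleus. Ire1 splices the Xbp1 mRNA and Atf6 is cut to an active factor, and both raise chaperones and degradation genes. Perk phosphorylates the translation factor eIF2alpha, which lets the Atf4 protein accumulate, and Atf4 in turn raises Ddit3 (CHOP), Trib3 and Asns. In the lung, the alveolar type II cells that secrete surfactant and the plasma cells that secrete antibody carry a high load of ER folding. The single Xbp1 probe does not separate spliced from unspliced mRNA, and bulk lung RNA does not separate fewer cells of a type from less RNA per cell.

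The upstream regions of the genes that carry a known ER stress motif are shown first, so that the sequence elements of the pathway can be seen beside the genes. The windows came from RefSeq on GRCr8, where all 10 genes matched, and were searched from 250 bases before to 50 bases after the gene start. The search used 4 motifs on both strands: the ER stress element ERSE (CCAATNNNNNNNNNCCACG), ERSE-II (ATTGG and CCACG with 1 base between them), the core of the unfolded protein response element (TGACGTGG) and the core of the Atf4 element (TGATGNAA). The 250 upstream bases of the 5 genes with a match are given 5′ to 3′ on the coding strand, with the matches in capitals.
Hspa5 (chr3:38452766-38453015, plus strand): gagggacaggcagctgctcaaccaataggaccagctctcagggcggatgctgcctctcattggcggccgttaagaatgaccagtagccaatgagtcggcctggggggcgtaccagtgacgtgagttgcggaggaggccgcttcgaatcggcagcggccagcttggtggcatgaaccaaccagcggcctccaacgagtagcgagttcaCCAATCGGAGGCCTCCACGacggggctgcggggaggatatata
Hsp90b1 (chr7:23012294-23012543, minus strand): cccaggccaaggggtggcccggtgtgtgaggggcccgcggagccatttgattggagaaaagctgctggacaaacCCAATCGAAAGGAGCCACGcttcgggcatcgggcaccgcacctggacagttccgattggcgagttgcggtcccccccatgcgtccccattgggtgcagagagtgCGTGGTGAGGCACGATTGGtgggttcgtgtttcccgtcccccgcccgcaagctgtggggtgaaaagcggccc
Xbp1 (chr14:84604373-84604622, plus strand): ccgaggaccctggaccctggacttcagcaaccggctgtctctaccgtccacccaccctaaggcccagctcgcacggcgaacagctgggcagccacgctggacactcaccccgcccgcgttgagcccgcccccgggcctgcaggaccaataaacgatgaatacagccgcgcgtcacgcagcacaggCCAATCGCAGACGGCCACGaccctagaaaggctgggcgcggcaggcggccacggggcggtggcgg
Herpud1 (chr19:10614708-10614957, minus strand): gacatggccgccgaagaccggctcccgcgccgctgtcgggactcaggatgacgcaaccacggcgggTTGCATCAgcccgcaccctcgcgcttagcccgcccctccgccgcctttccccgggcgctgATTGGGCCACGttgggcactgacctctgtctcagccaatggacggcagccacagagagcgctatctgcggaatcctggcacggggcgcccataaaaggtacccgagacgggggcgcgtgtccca
Trib3 (chr3:161275534-161275783, minus strand): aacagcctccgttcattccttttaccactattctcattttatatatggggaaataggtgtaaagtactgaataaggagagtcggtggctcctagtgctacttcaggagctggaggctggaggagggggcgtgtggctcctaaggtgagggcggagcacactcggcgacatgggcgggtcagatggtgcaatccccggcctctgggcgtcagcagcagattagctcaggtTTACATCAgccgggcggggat

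An exact ERSE was found in 3 of the 10 windows, against 0.0657% of all 33469 promoter windows of this length. Hspa5 held 1 match, from base -43 to -25 before the gene start. Hsp90b1 held 2, from -176 to -158 on the coding strand and from -72 to -54 on the opposite strand. Xbp1 held 1 from -65 to -47. ERSE-II was found in Herpud1 alone of the 10 (-124 to -114), against 0.0508% of all windows. The Atf4 element core was found in 2 of the 10, Herpud1 (-184 to -177) and Trib3 (-21 to -14), both on the opposite strand, against 3.98% of all windows. The core TGACGTGG was found in 0 of the 10 and in 0.595% of all windows. No 2 matches overlapped in these windows. The matches describe the sequence only and give no measure of binding.

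**Figure D1:**
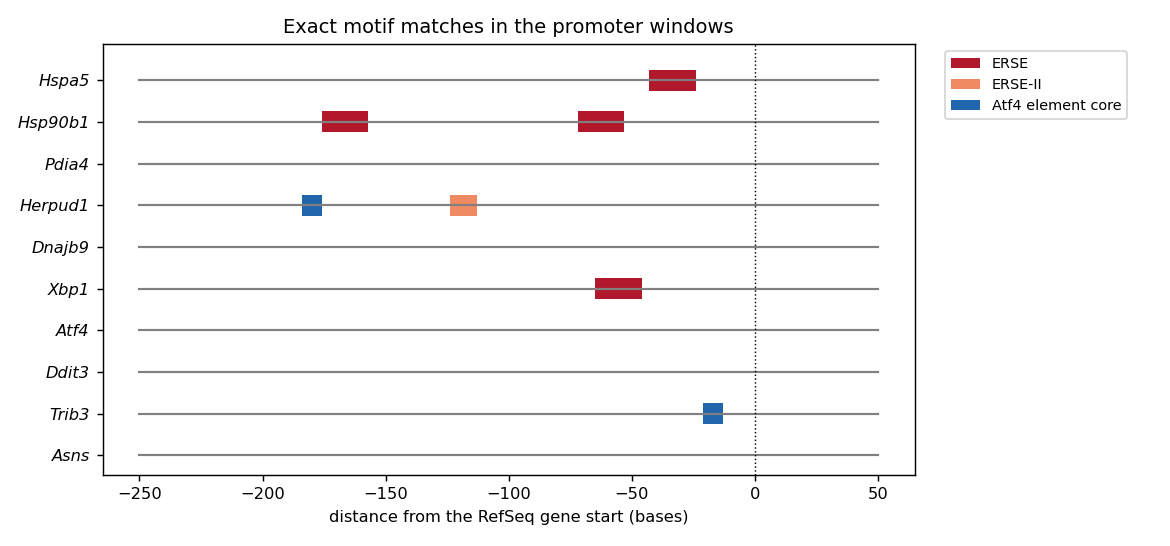
Exact motif matches in the promoter windows of the 10 genes, with distance from the RefSeq gene start in bases on the x axis and 1 grey line per gene. Red bars are ERSE, orange is ERSE-II and blue is the Atf4 element core, and Pdia4, Dnajb9, Atf4, Ddit3 and Asns hold 0 matches.

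Each dose was compared with clean air in 1 limma fit over the 24 arrays. The call needed both a change of 1.5-fold or more and an unadjusted p under 0.05, the rule of the study. None of the 10 genes was called at 600, 1000 or 1500 ppm, beside 0.616%, 1.64% and 1.22% of all genes tested. With no fold threshold, at an unadjusted p under 0.05, 0 of 10 passed at 600 ppm (4.33% of all genes), 1 of 10 at 1000 ppm (8.99% of all genes in either direction) and 0 of 10 at 1500 ppm (6.97% of all genes). The gene at 1000 ppm was Trib3, and it was higher, as were 5.34% of all genes at that threshold. With Benjamini-Hochberg adjustment over all genes 0 of 10 passed at any dose, beside 0%, 0.0188% and 0.0047% of all genes. On the same values the methods' t-test gave 3, 0 and 0 of the 10 genes at an unadjusted p under 0.05, beside 5.35%, 8.64% and 6.66% of all genes, and the 3 at 600 ppm were Ddit3, Dnajb9 and Xbp1. The median log2 difference of the 10 genes from control was 0.17, 0.077 and 0.050 at the 3 doses, and that of all genes was -0.0013, 0.0047 and 0.013. The sign was positive for 7 of 10 genes at each dose, beside 49.6%, 51.3% and 53.8% of all genes. These 3 comparisons share the same 6 control rats.

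**Figure D2:**
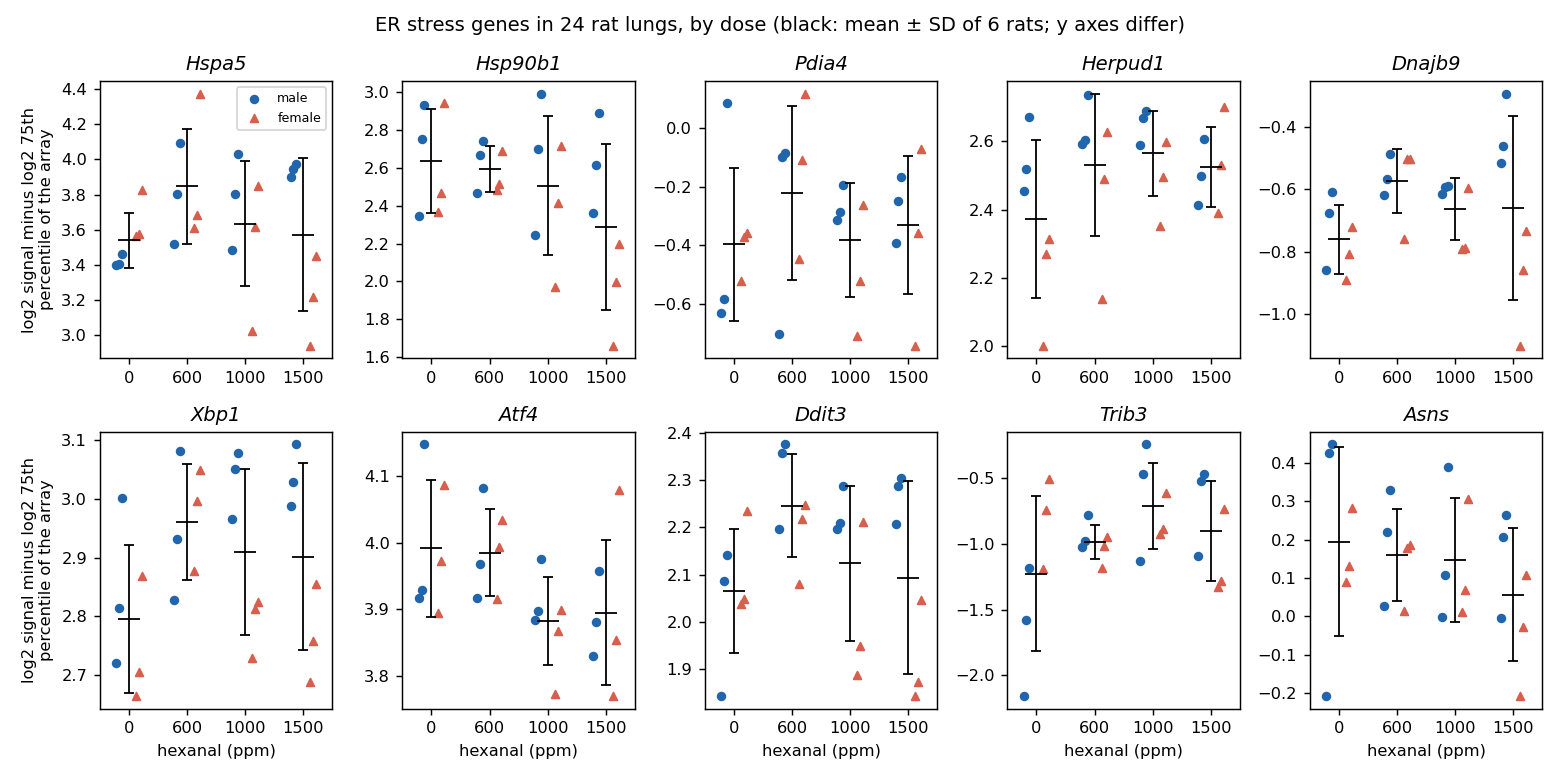
Level of each gene in every rat (y axis, log2 signal minus log2 75th percentile of the array; axes differ between genes) by hexanal concentration in ppm. Circles are males, triangles are females, and black bars are the mean ± SD of 6 rats. Trib3 shows the widest spread, from -2.16 to -0.24, and Atf4 the narrowest, from 3.77 to 4.15.

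The chaperones came first. Hspa5 encodes BiP, the main ER chaperone, which also holds the sensors inactive. Its level had a lowest, median and highest value of 3.40, 3.51 and 3.82 in controls, 3.52, 3.74 and 4.38 at 600 ppm, 3.02, 3.71 and 4.03 at 1000 ppm. The high-dose group had 2.94, 3.68 and 3.97. The control rats were the most alike and the 4 groups overlapped. Against control, the 600 ppm group differed by 0.31 ± 0.19 (SE, n = 6 rats a group). The difference was 0.096 for the middle and 0.033 for the high dose, and none of the 3 passed the test. The SD between rats was 0.16 in controls and 0.44 at 1500 ppm, a difference in spread that was not tested.

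Hsp90b1 encodes Grp94, the ER member of the Hsp90 family. Its values ran from 2.35 to 2.94 in controls with a median of 2.61, from 2.47 to 2.74 at 600 ppm with a median of 2.59, from 1.97 to 2.99 at 1000 ppm with a median of 2.56, and from 1.66 to 2.89 at 1500 ppm with a median of 2.28. The 3 females at 1500 ppm were below all controls, at 2.00, 1.66 and 2.20. The other rats at that dose lay within the control range. The difference at 1500 ppm was -0.35 with a 95% interval of -0.72 to 0.026, and its adjusted p was 0.745. Pdia4, a protein disulphide isomerase, stayed between -0.74 and 0.12 in all rats, and its differences from control were 0.18, 0.015 and 0.067 at the 3 doses, each smaller than the SD of 0.26 between control rats.

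Herpud1 belongs to the complex that removes misfolded proteins from the ER. Its lowest, median and highest levels were 2.00, 2.38 and 2.67 in controls, 2.14, 2.60 and 2.73 at 600 ppm, 2.35, 2.59 and 2.69 at 1000 ppm. The high-dose values were 2.39, 2.52 and 2.70. The low end of the control range came from the 3 control females, at 2.00, 2.27 and 2.32. The differences from control were 0.16, 0.19 and 0.15, and the 1000 ppm value had an unadjusted p of 0.0748 and an adjusted p of 0.594. Dnajb9 encodes ERdj4, a co-chaperone of BiP. It ranged from -0.89 to -0.61 in controls, from -0.76 to -0.49 at 600 ppm, from -0.79 to -0.59 at 1000 ppm and from -1.10 to -0.29 at 1500 ppm. At 600 ppm 4 of 6 rats were above every control. The difference there was 0.19, with a limma p of 0.0750 and an exact two-sided permutation p of 0.0173 over 6 rats against 6. The adjusted limma p was 0.997. The smallest p that this permutation test can give is 0.00216.

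Xbp1 encodes the transcription factor that Ire1 activates by splicing. Its level ran from 2.66 to 3.00 in controls (median 2.77), from 2.83 to 3.08 at 600 ppm (median 2.96), from 2.73 to 3.08 at 1000 ppm (median 2.89) and from 2.69 to 3.09 at 1500 ppm (median 2.92). The groups overlapped, and the difference at 600 ppm was 0.17 with a limma p of 0.0526 and an exact permutation p of 0.0346. Atf4, the factor translated when eIF2alpha is phosphorylated, had the tightest levels of the 10, with group means of 3.99, 3.99, 3.88 and 3.90 from control to 1500 ppm. Its differences at 1000 and 1500 ppm were -0.11 and -0.096, and neither passed the test. Ddit3, which encodes the proapoptotic factor CHOP, ranged from 1.84 to 2.24 in controls and from 2.08 to 2.38 at 600 ppm, where 3 of 6 rats (2 males and 1 female) were above every control. Its 600 ppm difference of 0.18 had an adjusted limma p of 0.997 and an exact permutation p of 0.0260. With adjustment over all genes, the exact permutation p at 600 ppm was 0.799 for Dnajb9, 0.868 for Xbp1 and 0.857 for Ddit3.

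Trib3 encodes a pseudokinase that Atf4 and CHOP induce. Its lowest, median and highest levels were -2.16, -1.19 and -0.51 in controls, -1.13, -0.75 and -0.24 in the middle-dose group and -1.33, -0.91 and -0.47 in the high-dose group. The low-dose rats lay between -1.18 and -0.78. The 2 lowest rats of all 24 were control males, at -2.16 and -1.58, and the other 4 controls lay between -1.19 and -0.51, among the exposed rats. Trib3 was higher at 1000 ppm by 0.51 ± 0.22 (SE), a 1.43-fold difference, with an unadjusted p of 0.0277 and an adjusted p of 0.515. The exact permutation p was 0.0909 for 6 rats against 6. With the slide as a fixed block the difference was 0.33 with an unadjusted p of 0.394, with array weights it was 0.35 with an unadjusted p of 0.120, and without control rat 1 or rat 2, or 1000 ppm rat 11 or rat 13, it no longer passed an unadjusted p of 0.05. Without control rat 21, control rat 23 or 1000 ppm rat 12 it also passed the 1.5-fold threshold. Asns, the asparagine synthetase that Atf4 induces when amino acids run short, ranged from -0.21 to 0.45 in controls and from -0.21 to 0.27 at 1500 ppm, and its differences were -0.035, -0.048 and -0.14.

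**Figure D3:**
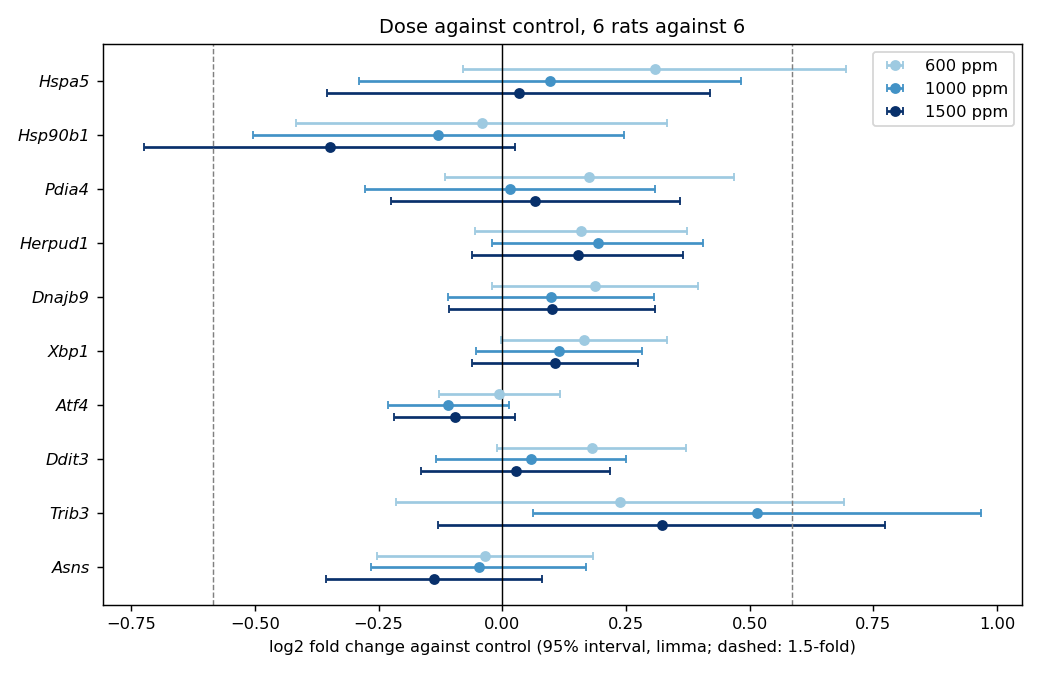
Difference from control (x axis, log2 fold change from limma with its 95% interval) for each gene at 600, 1000 and 1500 ppm, 6 rats against 6. The dashed lines mark 1.5-fold. Only the interval of Trib3 at 1000 ppm, from 0.062 to 0.97, leaves out 0.

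The doses were also compared with each other in the same fit, where the control arrays enter only the estimate of the spread. Between 600 and 1000 ppm 0 of 10 genes had an unadjusted limma p under 0.05, beside 3.28% of all genes. Between 600 and 1500 ppm the count was 0 of 10 beside 8.38%, and between 1000 and 1500 ppm it was 0 of 10 beside 4.98%. A slope on concentration over all 24 rats gave 0 of 10 genes at that threshold, beside 8.49% of all genes. The slopes nearest to it were those of Atf4, -0.077 per 1000 ppm with an unadjusted p of 0.0518, and Hsp90b1, -0.23 per 1000 ppm with an unadjusted p of 0.0551.

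The levels were then compared between males and females. Averaged over the 4 groups, 9 of 10 genes had a higher mean in males, beside 44.6% of all genes. At an unadjusted p under 0.05, 5 of 10 were higher in males, beside 15.7% of all genes. The adjusted p was under 0.05 for 4 of 10, beside 26.5% of all genes in either direction. These were Dnajb9 (0.18 ± 0.051, SE; adjusted p = 0.0143), Xbp1 (0.15, adjusted p = 0.0184), Ddit3 (0.15, adjusted p = 0.0289) and Herpud1 (0.18, adjusted p = 0.0338). Only Dnajb9 of these had a higher male mean in each group. Female means were higher for Ddit3 in controls (2.11 against 2.02 in males) and Xbp1 at 600 ppm (2.97 against 2.95). For Herpud1 the means were 2.20 in females and 2.55 in males among controls, and 2.54 and 2.51 at 1500 ppm. Since every slide carried rats of a single sex, the sexes and their slides cannot be told apart here, and with the slide as a random block 0 of the 10 passed the adjusted threshold.

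The dose effect itself was then compared between the sexes, as the change from control in males minus that in females. At 1500 ppm 4 of 10 genes had a more positive effect in males at an unadjusted p under 0.05, beside 12.7% of all genes, and 1 of 10 a more negative one, beside 7.44%. Of these, 2 genes differed at least 1.5-fold, beside 11.2% of all genes. The adjusted p was under 0.05 for 0 of 10, beside 5.02% of all genes. Trib3 differed by 1.25 ± 0.36 (SE; adjusted p = 0.0533), Hspa5 by 0.97 ± 0.31 (adjusted p = 0.0741), Ddit3 by 0.43 ± 0.14 (adjusted p = 0.0789), Dnajb9 by 0.38 ± 0.14 (adjusted p = 0.134) and Herpud1 by -0.39 ± 0.17 (adjusted p = 0.201). At 1000 ppm the count was 2 of 10, Trib3 (1.02) and Ddit3 (0.30), beside 6.59% of all genes. At 600 ppm it was 1 of 10, Trib3 (0.95), beside 2.05%.

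The values behind this were as follows. Hspa5 was 3.40, 3.46 and 3.41 in control males and 3.94, 3.90 and 3.97 in males at 1500 ppm, and it was 3.82, 3.58 and 3.56 in control females and 3.22, 2.94 and 3.45 in females at 1500 ppm. The males at 1500 ppm were all above their controls and the females all below theirs. Trib3 was -2.16, -1.58 and -1.18 in control males against -0.47, -1.09 and -0.52 in males at 1500 ppm. In females it was -0.51, -1.19 and -0.74 in controls and -1.28, -0.73 and -1.33 at 1500 ppm. The male groups of Trib3 did not overlap and the female groups did. The control males also lay below the control females, with means of -1.64 ± 0.49 and -0.81 ± 0.35 (SD, n = 3 each), and the means at 1500 ppm were -0.69 ± 0.35 and -1.11 ± 0.33.

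Ddit3 was 1.84, 2.09 and 2.14 in control males and 2.30, 2.29 and 2.21 in males at 1500 ppm. In females it was 2.05, 2.04 and 2.24 in controls and 1.84, 1.87 and 2.05 at 1500 ppm. The male groups were apart and the female groups overlapped. Dnajb9 in males went from -0.86, -0.68 and -0.61 in controls to -0.29, -0.46 and -0.52 at 1500 ppm, also without overlap. Herpud1 ran the other way, with control females at 2.00, 2.27 and 2.32 below the females at 1500 ppm at 2.53, 2.70 and 2.39, while the male groups overlapped.

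Counted over the 10 genes, the male groups at 1500 ppm and control did not overlap for 4 genes, all higher at 1500 ppm, beside 25.8% of all genes in either direction. The female groups did not overlap for 3, with Hspa5 and Hsp90b1 lower and Herpud1 higher, beside 21.4% of all genes in either direction. Both counts lie near those shares, and control and 1500 ppm rats shared no slide. An exact permutation test of 3 rats against 3 cannot give a p under 0.10. Within the 8-group limma fit, which was split by sex after the values were seen, 5 of 10 genes were higher in males at 1500 ppm at an unadjusted p under 0.05 (Hspa5, Dnajb9, Xbp1, Ddit3 and Trib3), beside 10.8% of all genes. In females 2 of 10 passed in either direction (Hsp90b1, lower, and Herpud1, higher), beside 16.2%. The smallest adjusted p was 0.0507 in males, for Trib3, and 0.152 in females, for Herpud1.

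Over all 3 doses, the 9 exposed males were each above all 3 control males for Hspa5, Ddit3 and Trib3, which is 3 of 10 genes beside 1.15% of all genes. In females 0 of 10 genes had that pattern, beside 1.25%. This pattern was seen in the values before it was counted. For Hspa5 the control males spanned 3.40 to 3.46 and the exposed males 3.48 to 4.09. For Ddit3 the spans were 1.84 to 2.14 and 2.20 to 2.38. All 3 control males lay on the same slide, which held 1 exposed male, rat 6 at 600 ppm, with Hspa5 at 4.09, Ddit3 at 2.38 and Trib3 at -1.02. Rat 6 is among the 9 exposed males counted above. That it lay above the 3 controls beside it therefore follows from the pattern and adds no separate support.

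**Figure D4:**
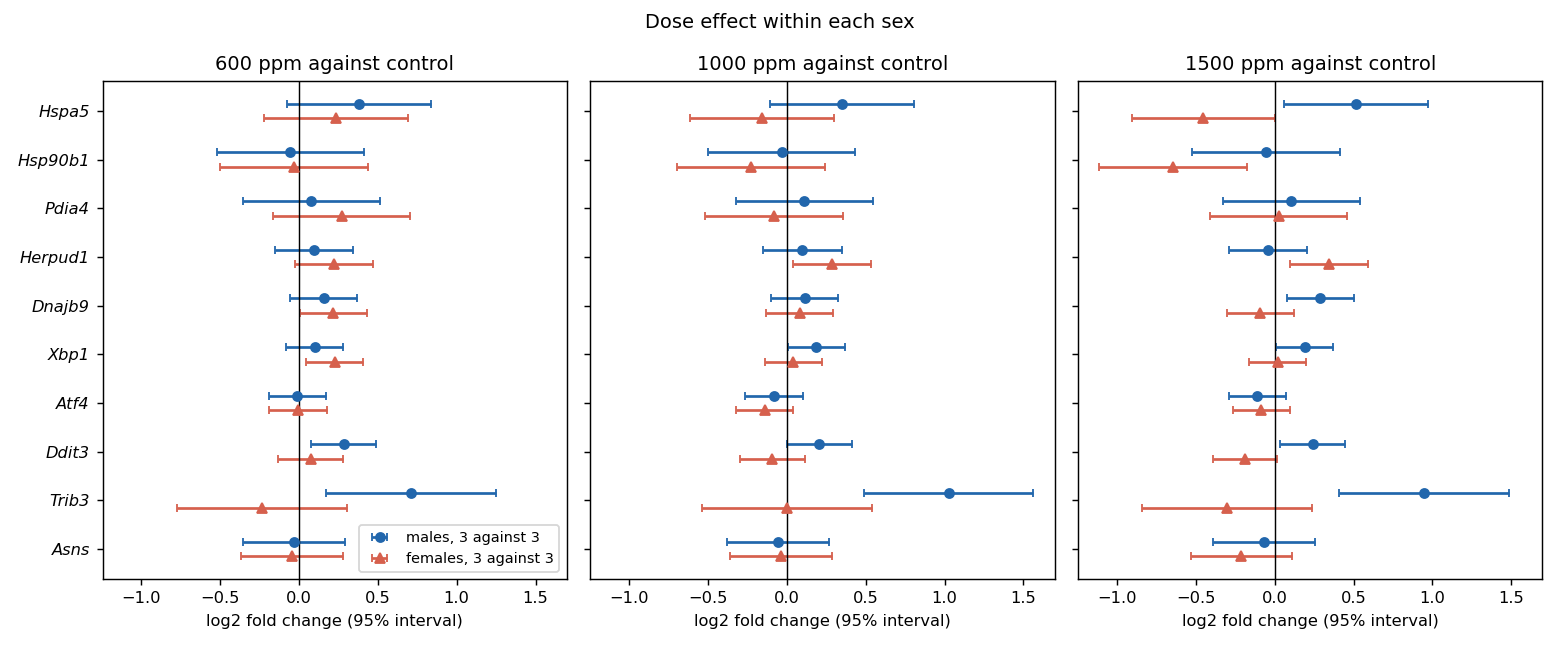
Dose effect within each sex (x axis, log2 fold change from control with its 95% interval, 8-group limma fit) for each gene at 600, 1000 and 1500 ppm. Blue circles are males and red triangles are females, 3 rats against 3. At 1500 ppm Hspa5 sits at 0.52 in males and -0.45 in females, and Trib3 at 0.95 and -0.30.

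The slide is the batch that the file headers give. Control and 1500 ppm rats shared no slide, so the difference was also followed within slides, in steps from the lower to the higher dose that a slide held. In each sex the step from control set 1 rat at 600 ppm against 3 controls, the step from 600 ppm set 2 rats against 2, and the step to 1500 ppm set 3 rats against 1 rat at 1000 ppm. The steps from control and to 1500 ppm thus rest on a single rat in 1 arm. In males Hspa5 was higher at the higher dose on each slide, by 0.67 between control and 600 ppm, 0.10 between 600 and 1000 ppm and 0.14 between 1000 and 1500 ppm. In females the same steps were 0.03, -0.56 and -0.41. With the slide as a fixed block, the difference between the sexes at 1500 ppm was 1.84 for Hspa5 (unadjusted p = 0.0263) and 0.80 for Dnajb9 (unadjusted p = 0.0261). It was 0.97 for Trib3 (unadjusted p = 0.321), 0.33 for Ddit3 (unadjusted p = 0.336) and 0.28 for Herpud1, which then had the opposite sign. Pdia4 and Atf4 changed sign too, from 0.080 to -1.21 and from -0.025 to 0.16. Neither of these 2 genes passed an unadjusted limma p of 0.05 in the main fit or any alternative. For Hsp90b1 the male steps were 0.06, 0.28 and 0.38 and the female steps -0.08, -0.24 and -0.46. Against control, however, Hsp90b1 in males differed by -0.052, -0.033 and -0.056 at the 3 doses, where Hspa5 differed by 0.38, 0.35 and 0.52. Counted by slide, 9, 6 and 6 of the 10 genes were higher at the higher dose on the 3 male slides and 5, 1 and 3 on the 3 female slides, values with no test. The share of all genes that were higher at each step was not computed, so these counts are not a result about the 10 genes.

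Whether these genes vary together between rats was asked for 4 pairs of known biology, after the mean of each dose group was removed. Hspa5 and Hsp90b1 correlated over 24 rats with Pearson's r = 0.76 and Spearman's rho = 0.68. The permutation p within dose groups was 0.00014 for r and 0.00072 for rho, and 0.00056 and 0.00288 after adjustment over the 4 pairs. Without rats 37 and 32, the farthest from the median of Hspa5, r was 0.62, and with slide means removed it was 0.71. With the means of each dose and sex removed and permutation within dose and sex, an alternative added after the data were seen, it was 0.65 (adjusted permutation p = 0.00540). Ddit3 and Trib3 correlated at r = 0.50 and rho = 0.51, with adjusted permutation p of 0.0443 and 0.0496. Without rats 36 and 33 r was 0.45, with slide means removed it was 0.39 with an adjusted permutation p of 0.346, and with dose and sex means removed it was 0.34 with an adjusted permutation p of 0.353.

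Hspa5 and Pdia4 did not pass, at r = 0.21 and rho = 0.15 (adjusted permutation p = 0.343 and 0.669), and r was -0.019 without rats 37 and 32. Atf4 and Asns gave r = -0.25 and rho = -0.091 (adjusted permutation p = 0.343 and 0.695), and r was 0.036 without rats 38 and 2. The 45 pairs among the 10 genes ran from -0.62 to 0.76 with a median of 0.26. Of these, 10 were above 0.5 and 9 below 0, and the median of the 10 genes with every other gene tested was -0.026. The 10 above 0.5 were the pairs among Hspa5, Hsp90b1, Dnajb9, Xbp1 and Ddit3. With slide means removed 4 of the 45 pairs were above 0.5, and with dose and sex means removed only Hspa5 and Hsp90b1 were (0.65). Hspa5 and Dnajb9 then went from 0.54 to 0.16, Dnajb9 and Xbp1 from 0.62 to 0.20, and Xbp1 and Ddit3 from 0.51 to 0.065. The lowest value was that of Pdia4 with Asns. All points share the scaling of their array, and these values are a description.

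**Figure D5:**
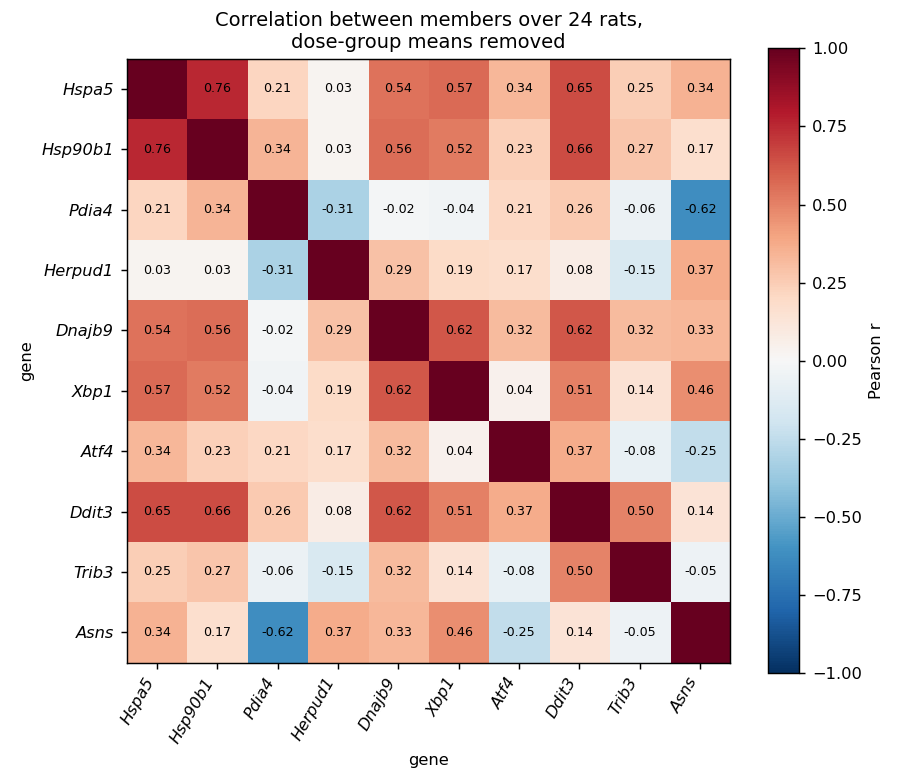
Pearson correlation between the 10 genes over 24 rats after dose-group means were removed (colour scale from -1 to 1; both axes list the genes). Hspa5, Hsp90b1, Dnajb9, Xbp1 and Ddit3 hold the 10 entries above 0.5, from 0.51 to 0.76, of which 1 (Hspa5 with Hsp90b1, 0.65) stays above 0.5 when sex means are removed too. Pdia4 with Asns is the lowest at -0.62.

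The genes most like Hspa5 were then ranked by Pearson correlation over the 24 arrays, among 12411 named genes, as a description with no test. They were Slc35b1 (0.87), a transporter of the ER membrane, the disulphide isomerases Pdia6 (0.82) and Pdia3 (0.82), the collagen chaperone Serpinh1 (0.80) and the tubulin cofactor Tbcb (0.79). With slide means removed the values were 0.88, 0.85, 0.78, 0.80 and 0.72. Among the 10 genes, Ddit3 ranked 34 (0.70) and Hsp90b1 46 (0.69), while Pdia4 ranked 2071 (0.28). For Asns the nearest were Cap1 (0.87), Supt5h (0.84), Abhd1 (0.84), Praf2 (0.84) and Lrrc8d (0.84). Atf4 was at -0.092 with Asns and Pdia4 at -0.58, the latter at -0.70 with slide means removed.

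The rest of the pathway was read from lists of its known genes, against control, and the counts at an unadjusted p under 0.05 stand beside 4.33%, 8.99% and 6.97% of all genes at 600, 1000 and 1500 ppm. Of 6 sensors and their proteases, 0 passed an unadjusted p under 0.05 at any dose. The lowest limma p values were those of Eif2ak3 (Perk) and Mbtps2, a protease that cuts Atf6, both at 1500 ppm. Eif2ak3 had a log2 difference of 0.12 (limma p = 0.105, exact permutation p = 0.104). Mbtps2 had a log2 difference of 0.32 (limma p = 0.140, exact permutation p = 0.238). Of 18 further ER chaperones and folding enzymes measured, 1 was higher at 600 ppm and 0 passed at 1000 and 1500 ppm. That gene was Sdf2l1, a chaperone cofactor, at 0.33 (exact permutation p = 0.0411, adjusted limma p = 0.997). Hyou1, an ER chaperone of the Hsp70 family, was at 0.17 at 600 ppm and 0.17 at 1500 ppm (exact permutation p = 0.108 and 0.0433). The sign was positive for 15, 11 and 6 of the 18 from the low to the high dose, beside 49.6%, 51.3% and 53.8% of all genes. The medians of the 18 were 0.085, 0.041 and -0.017.

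Of 13 genes of ER-associated degradation and the translocon, Derl3 was higher at 600 ppm (0.34, exact permutation p = 0.0260) and Os9 lower at 1500 ppm (-0.23, exact permutation p = 0.0628), and 0 passed at 1000 ppm. Both act in the export of misfolded proteins from the ER. Of 25 further genes of the integrated stress response and Atf4 targets, 2 were higher at 600 ppm, 1 was higher and 2 were lower at 1000 ppm, and 2 were lower at 1500 ppm, counts of 2, 3 and 2 of 25 that lie near those shares. The called gene was Ddit4 (Redd1), an inhibitor of mTORC1. It was lower by 1.33 on the log2 scale at 1000 ppm (control mean 1.96 ± 1.21, SD; 0.63 ± 0.56 at 1000 ppm; adjusted p = 0.515) and by 1.43 at 1500 ppm (adjusted p = 0.451). Of 6 genes of the other eIF2alpha kinases and of eIF2, Eif2ak2 (Pkr) was lower at 600 ppm (-0.28, adjusted limma p = 0.997), where all 6 exposed rats were below all 6 controls and the exact permutation p was 0.00216, the smallest it can give. The share of all genes separated from control in this way at 600 ppm was not counted. The separation of Eif2ak2, a gene picked from a list, is therefore a description and not a result by itself. Eif2ak2 differed from control by -0.18 at 1000 ppm and -0.023 at 1500 ppm, where 2 and 1 of the 6 rats lay below every control. Eif2s1, eIF2alpha itself, was higher at 1000 ppm (0.12, exact permutation p = 0.0346).

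Markers of cells that could carry these genes were read beside them. All 7 alveolar type II markers on the array were well above background on all 24 arrays, and 0 of 7 was called at any dose. Their summed level relative to the 75th percentile ran from 517 to 605 in controls and from 485 to 612 at 1500 ppm. Each such sum adds the linear signals of different probes, so the brightest probes of a list weigh most and called genes may weigh little. The 5 plasma cell markers tested summed to 20.9 to 25.2 in controls and 19.3 to 26.2 at 1000 ppm, with Tnfrsf17 called higher there (0.82). Of 6 airway secretory markers 3 were called higher at 1000 ppm, and the sum ran from 146 to 234 in controls and from 193 to 269 at 1000 ppm. Of 10 heart muscle markers 5 were called higher at 1000 ppm, and their sum ran from 3.45 to 39.4 in controls and from 8.68 to 138 at 1000 ppm. Of 10 immediate early genes 6 were called lower at 1500 ppm, and their sum ran from 32.2 to 97.6 in controls and from 27.7 to 45.6 at 1500 ppm. The calls stand beside 1.64% of all genes called in either direction at 1000 ppm and 1.22% at 1500 ppm. The lowest adjusted limma p of these called markers was 0.515 at 1000 ppm and 0.182 at 1500 ppm (Dusp1). Of 6 alveolar macrophage markers tested 0 was called at any dose, with a sum of 3.57 to 6.90 in controls and 3.63 to 5.95 at 1500 ppm, and the defining marker Marco was above background on 1 array. The part of these cells in the results on the 10 genes was not tested.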

How the data were processed

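Lung RNA of 24 rats was hybridised to one-colour (Cy3) Agilent rat arrays, 4 to a slide on 6 slides, each slide of 1 sex, and groups were taken from the labels. The authors' deposited intensities are processed signals of Agilent Feature Extraction 11.5.1.1 (per the file headers), with the background removed per array and no scaling across arrays. The deposited value table of the series holds the same intensity, equal within 0.1% for 99.69% to 99.82% of an array's probes. It was used as an alternative. The sample titles give the concentration in ppm, as the methods of the study do, and the labels' treatment protocol gives the same values in mg/m3; ppm is used here. That protocol states an exposure of 5 weeks and the methods a shorter one.

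Spots other than controls (42877) were averaged into 30367 probes, of which 18355 (60.4%) matched a symbol by accession through a RefSeq gene table of GRCr8. The design was made on another build, so probe coordinates are left out. Values were the log2 processed signal, from which the log2 75th percentile of the array was taken (75th percentile 1701 to 3133, probes well above background 70.7% to 81.7%). A probe was retained if some group had it well above background on 5 or more of its 6 arrays (23616), with the brightest probe for a gene (21255 genes or unnamed probes). The number of arrays limits the precision. The tools were limma 3.58.1 with data.table (1.17.8) under R 4.3.3: lmFit and eBayes on 4 groups, on a dose slope and on 8 groups of dose and sex, with Benjamini-Hochberg adjustment over all genes and exact permutation tests of 6 against 6. Correlations used 100000 resamples within groups. The labels do not say that the rats came from separate cages or litters.

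The 10 genes and all lists were chosen with earlier results of these data known. The genes named are the 10 and the 5 most correlated with Hspa5 and with Asns. From each pathway list they are the genes called at any dose or, if none, the 2 with the lowest p. Of the marker lists only Tnfrsf17, Dusp1 and Marco are named, and the rest stand as counts and sums. Genes with p under 0.05 in a list were in part not named. The within-sex effects and the correlations with sex means removed were added after the data were seen. Alternatives were normexp background correction with offset 50, quantile and median scaling, the unscaled table, other filters on dim probes, the methods' t-test, fits of control with a single dose, array weights, the slide as a fixed or random block, sex as a covariate, the mean over probes and leaving out each rat. The scripts were tested on simulated data.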

Additional observations from a re-analysis of the deposited data

Results flagged for a closer look

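The dose effect differed between males and females at an unadjusted limma p under 0.05 in 8 comparisons of a gene and a dose, and in none of them was the adjusted p under 0.05. At 1500 ppm the effect in males minus that in females was 1.25 for Trib3, 0.97 for Hspa5, 0.43 for Ddit3, 0.38 for Dnajb9 and -0.39 for Herpud1. At 1000 ppm it was 1.02 for Trib3 and 0.30 for Ddit3, and at 600 ppm it was 0.95 for Trib3. Trib3 shares its 3 control males and 3 control females across the 3 doses, and control males 1 and 2 were the lowest of the 24 rats. The immediate early genes summed to 27.7 to 31.6 in males and 28.2 to 45.6 in females at 1500 ppm, and to 32.2 to 61.8 and 55.1 to 97.6 in male and female controls. Heart muscle markers summed to 3.55 to 24.3 in males and 4.71 to 140 in females at 1500 ppm. In controls the sums were 4.36 to 39.4 in males and 3.45 to 7.65 in females, and at 1000 ppm 16.1 to 94.0 and 8.68 to 138. Alveolar macrophage markers summed to 4.69 to 5.95 in males and 3.63 to 3.78 in females at 1500 ppm, against 3.57 to 6.90 in male and 4.49 to 4.85 in female controls. The part of these genes in the difference between the sexes was not tested, and sex and slide cannot be told apart. Of 40 groups of 6 rats, 0 held a rat set apart from the others by Dixon's ratio.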

How the results depend on the processing

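Called genes stayed at 0 of 10 at 600 and 1500 ppm in every alternative and without any 1 rat. At 1000 ppm Trib3 was called with the unscaled table (1), and without control rat 21 or 23 or 1000 ppm rat 12 (0 to 1 over all rats left out). At an unadjusted p under 0.05, 600 ppm gave 3 genes with the methods' t-test, fits of control with a single dose, sex as a covariate or array weights, and 2 with the slide as a fixed or random block. It gave 0 to 2 without 1 rat, above 0 without control rats 3, 21 or 23, or rats 7, 26, 27, 13, 31, 16, 18 or 36. At 1000 ppm the count was 0 with normexp, the methods' t-test, control with a single dose or either slide block, and 2 with quantile scaling or sex as a covariate. Array weights gave 1, but it was Herpud1 and not Trib3. It was 0 to 2 without 1 rat, moving with control rats 1, 2 or 3, or rats 26, 11, 13 or 32. At 1500 ppm it was 1 with sex as a covariate, 3 with array weights, and 0 to 1 without 1 rat, moving with control rats 1, 2, 3, 21 or 22, or rats 16, 18, 36 or 38. Between doses it was 0 to 1, moving without rat 18 or 38. The trend gave 1 with quantile scaling or sex as a covariate, 3 with array weights, and 0 to 2 without 1 rat, moving with any control rat or rats 12, 31, 16, 18, 36 or 38. For the sex difference of the dose effect, 600 ppm gave 0 with the unscaled table and 0 to 1 without 1 rat, moving with control rats 1 or 21. At 1000 ppm it gave 1 with normexp, median scaling, the unscaled table, either slide block or array weights, and 1 to 3 without 1 rat, moving with control rats 1 or 23, or rats 7, 11, 12, 13, 32, 33, 16 or 17. At 1500 ppm it gave 3 with the unscaled table, 2 with the slide as a fixed block and 4 to 6 without 1 rat. After adjustment the sexes differed in 1 gene with quantile scaling, 0 with the slide as a random block and 2 to 5 without 1 rat, moving with control rat 3 or rats 6, 32 or 36. The correlation of Ddit3 and Trib3 was 0.39 with slide means removed and 0.34 with dose and sex means removed, an alternative chosen after seeing the data, and passed in neither. The sex difference of the dose effect at 1500 ppm had the opposite sign with the slide as a fixed block for Herpud1 (0.28), Pdia4 (-1.21) and Atf4 (0.16). The cause was not tested. No paired analysis was possible because rat numbers are not shared between groups.

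The median of all genes at 1000 ppm moved by 0.10 with the unscaled table and by -0.12 with normexp. It moved further in other comparisons. For the sex difference of the dose effect it moved by 0.29, 0.22 and 0.18 with normexp at 600, 1000 and 1500 ppm. With the unscaled table those shifts were -0.13, -0.13 and 0.16, and males minus females moved by 0.17. The unscaled table also moved 1500 against 600 ppm by -0.14 and 1500 against 1000 ppm by -0.17. The slide as a fixed block moved the sex difference at 1500 ppm by -0.13. All 10 probes were well above background on all arrays. With 3 rats of a sex in a group, the comparisons between the sexes have wide intervals, and control and 1500 ppm rats shared no slide.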
